A study of Mus musculus with 12 samples.

Results

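Open chromatin regions (OCR) at 6 genes of catenin and Wnt signalling, Ctnnd1, Ctnna1, Ctnnb1, Wisp1, Axin2 and Apc, were examined by ATAC-seq, which reads open chromatin from where the Tn5 transposase can enter the DNA. A region was a member if it overlapped one of these genes or the 20 kb on either side of it (mm9), which took 53 of 118680 regions: 13 at Ctnnd1, 2 at Ctnna1, 12 at Ctnnb1, 8 at Wisp1, 5 at Axin2 and 13 at Apc. The YFP+ regulatory T cells (Treg) are given as from spleen, with 100000 cells lysed per library. The general purification methods name both spleen and lymph nodes. WT Treg were from Foxp3-YFP-Cre mice and Ikzf1-cko Treg from Ikzf1-fl-Foxp3-YFP-Cre mice, so that both genotypes carried the Foxp3-driven Cre and YFP, and the floxed Ikzf1 gene, which encodes Ikaros, was lost only in cells that had expressed Foxp3. Treg were used directly ex vivo or after 4 hr on plate-bound anti-CD3 and anti-CD28, with 3 libraries in each of the 4 groups. The methods call the replicates biological, but nothing states how many mice each came from, so the p-values measure the spread between these libraries. The ages of the mice are not given in the labels used here.

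In the absence of a Wnt ligand, β-catenin (Ctnnb1) is bound by a destruction complex built on the scaffolds Apc and Axin and is degraded. Wnt binding to its receptors stops this, and β-catenin enters the nucleus and joins TCF/LEF factors, which are central to T cell development, and Axin2, itself an inhibitor, is a classical target of this pathway. At the membrane, β-catenin and α-catenin (Ctnna1) also hold cadherins to the actin cytoskeleton, and p120-catenin (Ctnnd1) stabilises cadherins there. Wisp1 encodes a secreted matricellular protein of the CCN family.

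The clearest differences between genotypes lay at 2 regions over annotated start sites, those of Ctnnd1 and Wisp1. The 300 bases upstream of these 2 starts, and of 2 that differed little, at Ctnnb1 and Axin2, are printed. They are mm9 reference sequence read 5′ to 3′ on the strand of the gene, lie wholly inside the member region and overlap no annotated exon. The windows are chr2:84490923-84491222 (- strand) for Ctnnd1, chr15:66722582-66722881 (+ strand) for Wisp1, chr9:120842218-120842517 (+ strand) for Ctnnb1 and chr11:108781363-108781662 (+ strand) for Axin2. Capitals mark matches on either strand to GGGAA (the core bound by Ikaros), TGANTCA (AP-1), CTTTGAT (TCF/LEF) and GTAAACA (forkhead factors such as Foxp3).
Ctnnd1: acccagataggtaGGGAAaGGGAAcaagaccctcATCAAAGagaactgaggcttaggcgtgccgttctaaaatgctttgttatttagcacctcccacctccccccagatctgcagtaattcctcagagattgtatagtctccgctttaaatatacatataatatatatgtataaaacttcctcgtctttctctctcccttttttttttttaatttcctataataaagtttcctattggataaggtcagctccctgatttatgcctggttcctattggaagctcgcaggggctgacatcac
Wisp1: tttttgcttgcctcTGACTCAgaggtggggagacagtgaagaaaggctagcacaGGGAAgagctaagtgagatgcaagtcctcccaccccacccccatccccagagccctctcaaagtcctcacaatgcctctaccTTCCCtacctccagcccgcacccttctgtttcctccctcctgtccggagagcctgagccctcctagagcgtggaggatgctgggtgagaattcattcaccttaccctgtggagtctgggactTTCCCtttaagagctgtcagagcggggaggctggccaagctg
Ctnnb1: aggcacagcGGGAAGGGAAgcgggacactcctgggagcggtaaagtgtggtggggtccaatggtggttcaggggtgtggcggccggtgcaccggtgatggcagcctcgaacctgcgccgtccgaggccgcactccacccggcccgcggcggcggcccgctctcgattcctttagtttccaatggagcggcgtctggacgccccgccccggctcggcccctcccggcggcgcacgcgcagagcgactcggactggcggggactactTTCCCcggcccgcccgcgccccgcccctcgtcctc
Axin2: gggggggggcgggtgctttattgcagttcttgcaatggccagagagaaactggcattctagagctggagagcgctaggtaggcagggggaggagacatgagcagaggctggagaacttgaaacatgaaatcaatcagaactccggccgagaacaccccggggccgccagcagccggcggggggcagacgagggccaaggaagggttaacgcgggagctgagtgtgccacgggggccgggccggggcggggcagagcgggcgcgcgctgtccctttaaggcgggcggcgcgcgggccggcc
The Ctnnd1 sequence held 2 matches to GGGAA and 1 to CTTTGAT, the Wisp1 sequence 3 to GGGAA and 1 to TGANTCA, the Ctnnb1 sequence 3 to GGGAA, and the Axin2 sequence no match. Among the same 300 bases of 22228 coding genes, 62.9% held GGGAA, 7.11% TGANTCA, 3.71% CTTTGAT and 3.46% GTAAACA. The upstream sequences of Ctnnd1 and Wisp1 held 5 and 4 CG dinucleotides, below the median of 9 over these genes. Those of Ctnnb1, Axin2, Ctnna1 and Apc held 38, 25, 35 and 20, at or above the upper quartile of 20. A match states only that the letters are present.

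The libraries held 4808916 to 15355521 counted reads, and every Ikzf1-cko library was larger than every WT library, so low counts were less precise in WT. The weakest 20% of regions took 6.0 to 7.1% of the reads in the stimulated WT libraries, against 1.9 to 3.62% in the other 9, and the part of this in each genotype difference after stimulation was not tested beyond the loess scaling given beside the results. Regions over the starts of Cd3e, Cd4, Foxp3, Il2ra and Ctla4, markers of T cells and Treg, averaged 10.2 to 63.2 FPKM in each group. No region lay over a start of Ikzf2, of the B cell genes Ms4a1 and Cd79a, of the myeloid genes Lyz2 and Csf1r, or of the erythroid gene Hba-a1. Those over Cd8a and Cd8b1 averaged 8.45 and 13.4 FPKM in WT against 3.58 and 8.92 in Ikzf1-cko Treg ex vivo, and 9.47 and 11.8 against 5.81 and 9.52 after stimulation, and the region over Cd14 averaged 6.98 to 8.70 FPKM. In bulk libraries, a smaller share of cells with an open region and a lower accessibility in each cell cannot be told apart.

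Of the 53 members, 7 covered an annotated start of their gene, 23 lay in introns, 1 in an exon without coding sequence, 13 upstream and 9 downstream. A total of 31 had at least 3.6 CPM (counts scaled to the library total) in at least 3 libraries and were tested, and 22 fell below this and were not. Only 16 were over the minimum in all 12 libraries. The region OCR_54537 downstream of Ctnna1 passed only through the stimulated WT libraries, where it is high. Its comparisons with that group therefore had to differ. The Ctnnd1 start region passed in 7 libraries, all 6 of Ikzf1-cko and 1 of ex vivo WT. The Ctnnd1 introns OCR_64203 and OCR_64200 also reached the minimum in all Ikzf1-cko libraries, OCR_64203 in 1 WT library and OCR_64200 in 1 of each WT group. OCR_64202 and the Wisp1 intron OCR_41121 each reached it in 1 WT library. These Ctnnd1 and Wisp1 regions passed through Ikzf1-cko libraries, where they are high, so the filter favours their genotype differences. Levels are FPKM, reads per kilobase of region scaled to the counted reads of the library, and genotype differences are log2 fold changes of Ikzf1-cko over WT ± SE from edgeR's quasi-likelihood test, with p adjusted by Benjamini-Hochberg over all 69957 tested regions. A region is called here if adjusted p was under 0.05 and the absolute log2 fold change over 1, and is said to have changed if adjusted p was under 0.05.

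**Figure D1:**
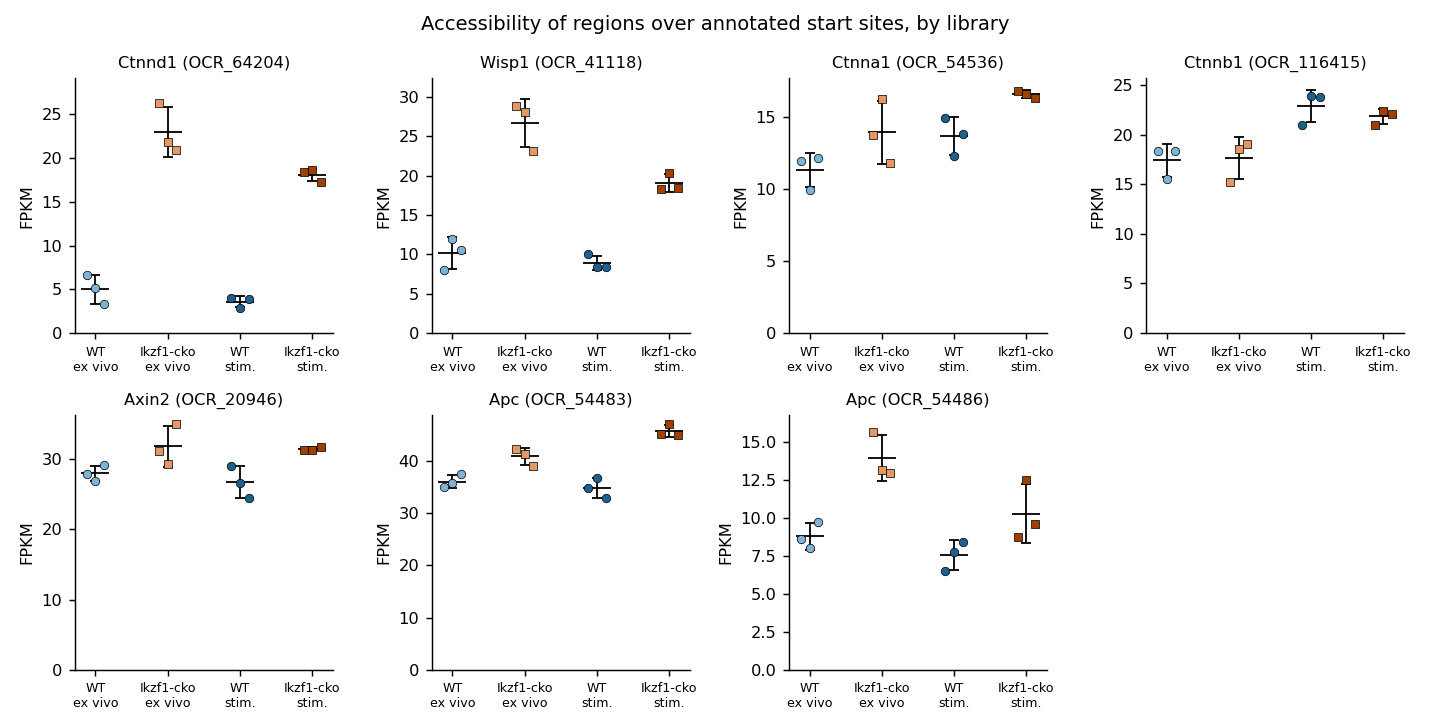
Accessibility (FPKM, y axis from 0) of the 7 member regions over annotated start sites in each library of the 4 groups (x axis), with points for libraries and bars for the mean ± SD (n = 3). At the Ctnnd1 and Wisp1 starts all Ikzf1-cko libraries sit above all WT libraries, ex vivo and stimulated, whereas the Ctnnb1 libraries of the genotypes overlap.

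The genotypes were compared after stimulation in 6 libraries other than those of the ex vivo contrast. By the methods, the sorted Treg were divided between stimulation and direct use, so the stimulated libraries may share sorted cells with the ex vivo ones, and which library goes with which is not given. The fits treat the 12 libraries as independent. The Ctnnd1 start was 5.02-fold and the Wisp1 start 2.13-fold more accessible in Ikzf1-cko Treg (n = 3 per group), while the Ctnnb1 start did not pass the test. In all, 2 of the 31 tested members were called higher and 1 lower in Ikzf1-cko, where 21.3% of all tested regions were called, 1.16% higher and 20.2% lower. Loess scaling gave 4 higher and 0 lower. These were the Ctnnd1 start (2.39), its introns OCR_64200 (1.08) and OCR_64203 (1.13), and the Wisp1 intron OCR_41121 (1.11). All of them had passed the filter through Ikzf1-cko libraries, and the Wisp1 start, at 0.91, was no longer called. Leaving out stimulated WT replicate 1 also gave 4 higher and 0 lower, and without WT replicate 2 or 3 there were 2 higher and 0 lower. By adjusted p alone 15 members rose and 2 fell, where 51.0% of tested regions passed, 20.4% higher and 30.7% lower. The median log2 fold change was 0.34 over the tested members, -0.11 over all tested regions and 0.18 over the 13211 tested regions that cover a start site of any gene. Under loess scaling the start-site median turned to -0.08, and the start regions that rose and fell by adjusted p alone went from 5667 and 1902 to 1298 and 3048. The filter can favour regions high in 1 group, so the libraries were also set side by side over all 53 members. Every stimulated Ikzf1-cko library was above every stimulated WT library at 17 of the 53 (32.1%) and below at 7 (13.2%), against 14.5% and 40.3% of all 118680 regions.

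The promoter of Ctnnd1, which encodes p120-catenin, a stabiliser of cadherins at the membrane, held the largest difference among the members. The region OCR_64204 (chr2:84490559-84491260) covers 6 annotated starts of Ctnnd1, on the - strand, and contains the sequence printed for that gene. In stimulated Treg it measured 4.00, 2.86 and 3.85 FPKM in the WT libraries and 18.4, 18.6 and 17.3 FPKM in the Ikzf1-cko libraries, from 11 to 17 and 119 to 139 reads. The groups did not overlap, and the lowest Ikzf1-cko library was far above the highest WT library. The log2 fold change was 2.33 ± 0.22 (adjusted p = 3.9e-09, edgeR, n = 3 per group) and stayed at 2.39 under loess scaling against abundance. This p carries the limit that the region passed the filter through Ikzf1-cko. Over the edgeR, DESeq2 and limma alternatives, a fit with no filter among them, its adjusted p was at most 4.5e-06. Ranked by rise, it was region 3 of 69957 and 2 of the 13211 regions over start sites.

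**Figure D2:**
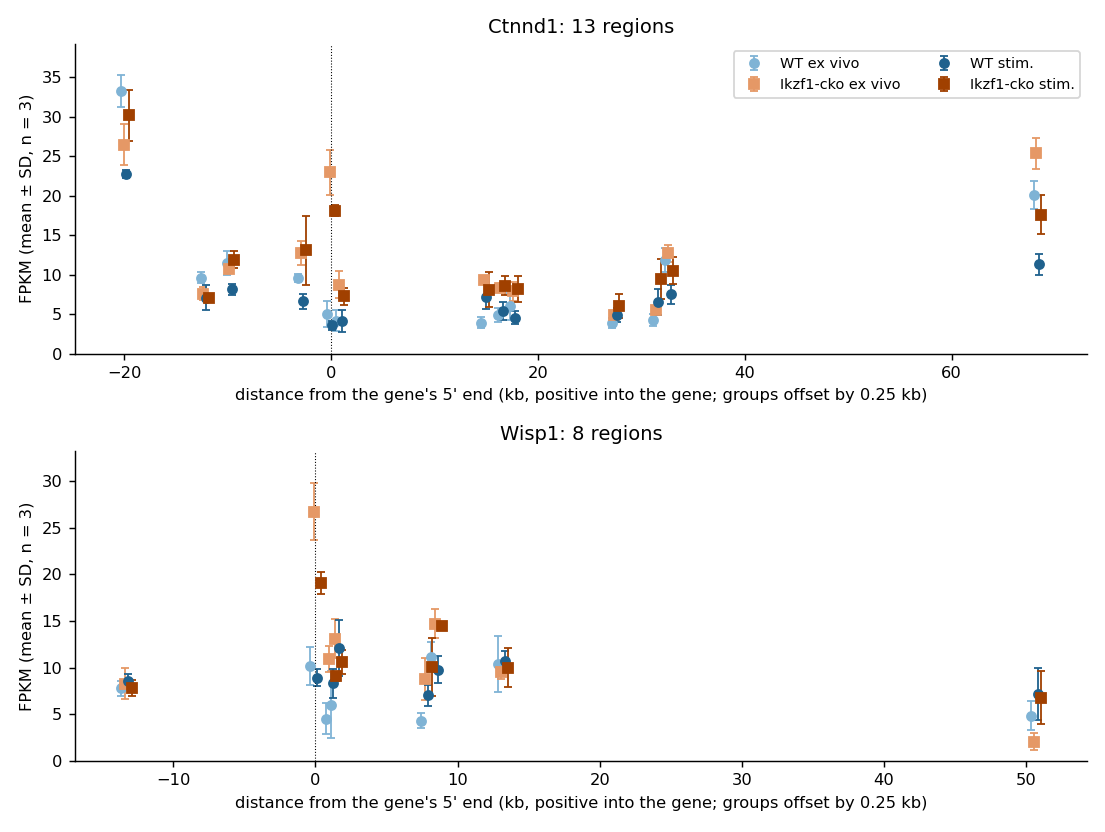
Mean accessibility (FPKM ± SD, n = 3, y axis from 0) of each region in the Ctnnd1 window (13 regions) and the Wisp1 window (8 regions), by distance from the 5′ end of the gene in kb, with 1 symbol for each of the 4 groups. In both windows the widest gap between genotypes is at the 5′ end, where the Ctnnd1 means are 3.57 and 18.1 FPKM and the Wisp1 means 8.92 and 19.1 FPKM in stimulated WT and Ikzf1-cko Treg.

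Along the rest of the Ctnnd1 window the differences were smaller. In stimulated Treg 8 of its 10 tested regions rose in Ikzf1-cko and none fell, where 20.4% of all tested regions rose and 30.7% fell. Counted among the 8 is OCR_64208, which covers the start of the neighbouring gene 2700094K13Rik. It was lower in Ikzf1-cko ex vivo (-0.32), and its stimulated difference of 0.41 became 0.08 under loess scaling. All Ikzf1-cko libraries were above all WT libraries at 9 of its 13 regions, against 14.5% of all 118680 regions. The intronic OCR_64203 (chr2:84489746-84490388), next to the start, measured 5.66, 2.84 and 3.88 FPKM in WT and 7.08, 8.39 and 6.24 FPKM in Ikzf1-cko. The libraries of the genotypes were apart at this region, which passed the filter through Ikzf1-cko. Its log2 fold change was 0.78 ± 0.27 (adjusted p = 0.017, edgeR). It no longer passed the test without WT replicate 2 (0.57, adjusted p = 0.13), WT replicate 3 (0.74, 0.064) or Ikzf1-cko replicate 2 (0.66, 0.074). The intronic OCR_64202 (chr2:84475733-84476223), within 3 kb of another Ctnnd1 start, overlapped between genotypes after stimulation (0.19 ± 0.26, adjusted p = 0.57), with loess scaling giving 0.67 (adjusted p = 0.049).

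A further 5 regions of this window that rose were singled out after their values were seen. The intronic OCR_64200 and OCR_64201 had log2 fold changes of 0.84 ± 0.25 and 0.67 ± 0.19 (adjusted p = 0.0058 and 0.0047, edgeR). Over the edgeR, DESeq2 and limma alternatives, the adjusted p reached 0.04 at OCR_64200 and 0.11 at OCR_64201. Of these, OCR_64200 passed the filter through Ikzf1-cko. OCR_64196, downstream of the gene, measured 11.8, 9.86 and 12.3 FPKM in stimulated WT and 17.4, 15.2 and 20.1 FPKM in stimulated Ikzf1-cko (0.64 ± 0.15, adjusted p = 7.9e-04). The intronic OCR_64197 and the upstream OCR_64206 had 0.50 ± 0.19 and 0.56 ± 0.18 (adjusted p = 0.024 and 0.010). Without WT replicate 1 these last fell to 0.37 and 0.51 (adjusted p = 0.17 and 0.057). OCR_64197 also failed the test without Ikzf1-cko replicate 2 (0.37, adjusted p = 0.13), as OCR_64206 did without Ikzf1-cko replicate 3 (0.48, adjusted p = 0.054).

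The Wisp1 promoter was the other called rise. Wisp1 is a secreted CCN protein first known as a target of Wnt-1. Its start region OCR_41118 (chr15:66722411-66723351) covers 3 annotated starts and measured 10.0, 8.35 and 8.40 FPKM in stimulated WT and 18.3, 20.4 and 18.5 FPKM in stimulated Ikzf1-cko. The groups were apart by more than their spread, with a log2 fold change of 1.09 ± 0.15 (adjusted p = 1.7e-06, edgeR). Loess scaling gave 0.91 (adjusted p = 2.1e-05), which passes the test and not the fold threshold. It ranked 23 of 13211 start regions by rise. The intronic OCR_41122 (chr15:66731010-66731728) rose, with 8.28, 11.2 and 9.83 FPKM in WT and 14.3, 14.9 and 14.2 FPKM in Ikzf1-cko (0.57 ± 0.17, adjusted p = 0.0053). Without WT replicate 1 this was 0.45 (adjusted p = 0.062). Its neighbour OCR_41121 overlapped between genotypes (0.51 ± 0.28, adjusted p = 0.13), and rose under loess scaling (1.11, adjusted p = 0.0038). The other 2 tested regions had log2 fold changes of -0.13 and -0.10.

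Ctnnb1 is the gene of β-catenin itself. Where 20.4% of all tested regions rose in stimulated Ikzf1-cko Treg and 30.7% fell, 0 of its 6 tested regions rose and 1 fell. Its start region OCR_116415 (chr9:120842101-120843870) covers 5 starts 4.7 kb into the longest gene model and measured 21.0, 23.9 and 23.8 FPKM in stimulated WT and 21.0, 22.4 and 22.1 FPKM in stimulated Ikzf1-cko. The libraries overlapped, and the log2 fold change was -0.07 ± 0.10 (adjusted p = 0.60, 95% interval -0.27 to 0.13). With loess scaling it was lower in Ikzf1-cko (-0.39, adjusted p = 0.0013). The small intronic OCR_116416 (chr9:120844325-120844475), the most accessible of its other regions, was below the filter at 18.3 ± 5.15 FPKM (SD, n = 3) in WT and 13.5 ± 3.88 FPKM in Ikzf1-cko. OCR_116420 (chr9:120870508-120871088), downstream of Ctnnb1 and within the neighbouring gene Ulk4, fell: 9.68, 11.6 and 7.16 FPKM in WT and 5.23, 5.43 and 6.60 FPKM in Ikzf1-cko (-0.72 ± 0.23, adjusted p = 0.0086). Without WT replicate 2 this was -0.56 (adjusted p = 0.089), and with loess scaling -0.48 (adjusted p = 0.12). The intronic OCR_116418, singled out after its values were seen, was at 0.34 ± 0.28 (adjusted p = 0.33) and higher in Ikzf1-cko under loess scaling (0.85, adjusted p = 0.024).

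Apc is a scaffold for β-catenin degradation, and its main start OCR_54483 (chr18:34380160-34381474), which covers 4 starts and a start of Gm10548, was the most accessible member. It measured 34.8, 36.7 and 32.9 FPKM in stimulated WT and 45.1, 47.1 and 45.0 FPKM in stimulated Ikzf1-cko (0.39 ± 0.08, adjusted p = 1.6e-04). The libraries did not overlap, but the difference was 0.03 (adjusted p = 0.79) under loess scaling. The internal start OCR_54486 (chr18:34406695-34407634) measured 6.51, 7.77 and 8.41 FPKM in WT and 8.77, 12.5 and 9.65 FPKM in Ikzf1-cko (0.45 ± 0.18, adjusted p = 0.032). It no longer passed the test without WT replicate 1 (0.35, adjusted p = 0.18), WT replicate 2 (0.48, 0.059) or Ikzf1-cko replicate 2 (0.30, 0.19), and with loess scaling (0.39, 0.090). OCR_54493 (chr18:34490133-34491254), past the end of Apc and over the start of Srp19, a signal recognition particle subunit, measured 20.3, 27.8 and 24.1 FPKM in WT and 27.6, 34.1 and 31 FPKM in Ikzf1-cko. These overlapped, with a log2 fold change of 0.37 ± 0.11 (adjusted p = 0.0063, edgeR), 0.25 without WT replicate 1 (adjusted p = 0.11) and 0.05 under loess scaling (adjusted p = 0.74). The intronic OCR_54490, named after its values were seen, gave 0.51 ± 0.21 (adjusted p = 0.042), and failed the test without any 1 of 9 libraries, the exceptions being the ex vivo WT libraries, with an adjusted p of up to 0.15.

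At Axin2, the inhibitor that Wnt signalling induces, the start region OCR_20946 (chr11:108781346-108782760) measured 29.0, 26.6 and 24.5 FPKM in stimulated WT and 31.3, 31.3 and 31.7 FPKM in stimulated Ikzf1-cko. The groups were apart, with a log2 fold change of 0.23 ± 0.09 (adjusted p = 0.032), but loess scaling turned it to -0.12 (adjusted p = 0.35). It also failed the test without any 1 of 5 of the 6 stimulated libraries, the exception being WT replicate 1 (0.18 to 0.24, adjusted p = 0.051 to 0.17). The upstream OCR_20945 (chr11:108771767-108772640) stood at 25.1 ± 2.16 FPKM in WT and 22.1 ± 0.739 FPKM in Ikzf1-cko (-0.19 ± 0.11, adjusted p = 0.15), and was lower under loess scaling (-0.46, adjusted p = 0.0019). At Ctnna1, α-catenin, which links cadherin complexes to actin, the start OCR_54536 (chr18:35277929-35279477) measured 14.9, 12.3 and 13.8 FPKM in WT and 16.8, 16.6 and 16.3 FPKM in Ikzf1-cko. These did not overlap and did not pass the test (0.27 ± 0.12, adjusted p = 0.061, 95% interval 0.02 to 0.52). Loess scaling gave 0.01 (adjusted p = 0.97).

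The region counted above as a called fall was OCR_54537 (chr18:35424102-35424477), 9.7 kb past the end of Ctnna1 and at percentile 2 of mean abundance among tested regions. It had 31, 28 and 19 reads in stimulated WT (13.6, 13.6 and 10.5 FPKM) and 26, 16 and 13 reads in the deeper Ikzf1-cko libraries (7.5, 4.33 and 3.02 FPKM). It was tested only because these WT libraries were high, so no p is given for it against that group. The log2 difference of -1.37 ± 0.39 turned to 0.48 under loess scaling.

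**Figure D3:**
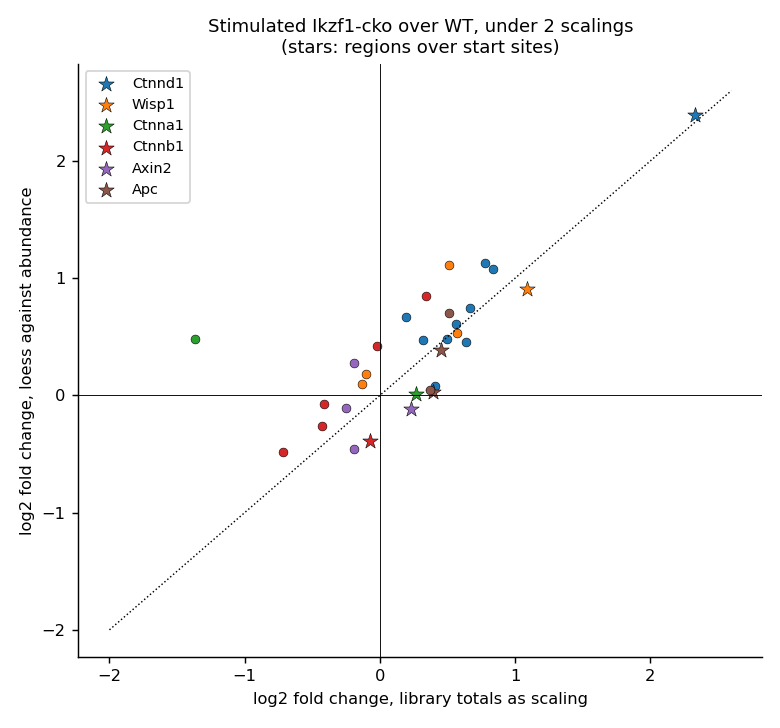
Log2 fold changes of the 31 tested members, stimulated Ikzf1-cko over WT, with library totals as scaling (x axis) and with loess normalization against abundance (y axis); stars are start-site regions and the dotted line marks equal values. Ctnnd1 stays far above 0 on both axes (2.33 and 2.39), the Apc main start drops to near 0 (0.39 and 0.03), and 1 Ctnna1 region crosses from -1.37 to 0.48.

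Ex vivo, the contrast that took part in choosing these genes, the values are a description with no test, and the counts past a threshold follow from that choice and support nothing. At the Ctnnd1 start the WT libraries measured 6.58, 5.10 and 3.31 FPKM and the Ikzf1-cko libraries 26.3, 21.8 and 20.9 FPKM, a log2 fold change of 2.27. At the Wisp1 start they measured 7.97, 12 and 10.6 FPKM and 28.8, 28.1 and 23.2 FPKM, a log2 fold change of 1.36. Neither pair of groups overlapped. Past both thresholds were 5 members, all higher in Ikzf1-cko, where 4.63% of all tested regions were called, 0.588% higher and 4.04% lower: these 2 starts, the Ctnnd1 introns OCR_64202 (1.28) and OCR_64203 (1.04), and the Wisp1 intron OCR_41121 (1.05). At OCR_64202, WT stood at 4.31, 4.32 and 3.08 FPKM and Ikzf1-cko at 9.02, 9.92 and 9.05 FPKM. The count was 3 without Ikzf1-cko replicate 1 or replicate 2. By adjusted p alone 9 were higher and 1 lower, where 21.5% of tested regions passed, 8.78% higher and 12.7% lower. All Ikzf1-cko libraries were above all WT libraries at 20 of the 53 members and below at 10, against 10.1% and 21.7% of all regions. The other starts had ex vivo log2 fold changes of 0.66 (Apc, internal), 0.30 (Ctnna1), 0.18 (Apc, main), 0.18 (Axin2) and 0.02 (Ctnnb1), with means of 8.80 and 14.0, 11.3 and 13.9, 36.0 and 40.9, 27.9 and 31.9, and 17.4 and 17.6 FPKM in WT and Ikzf1-cko.

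**Figure D4:**
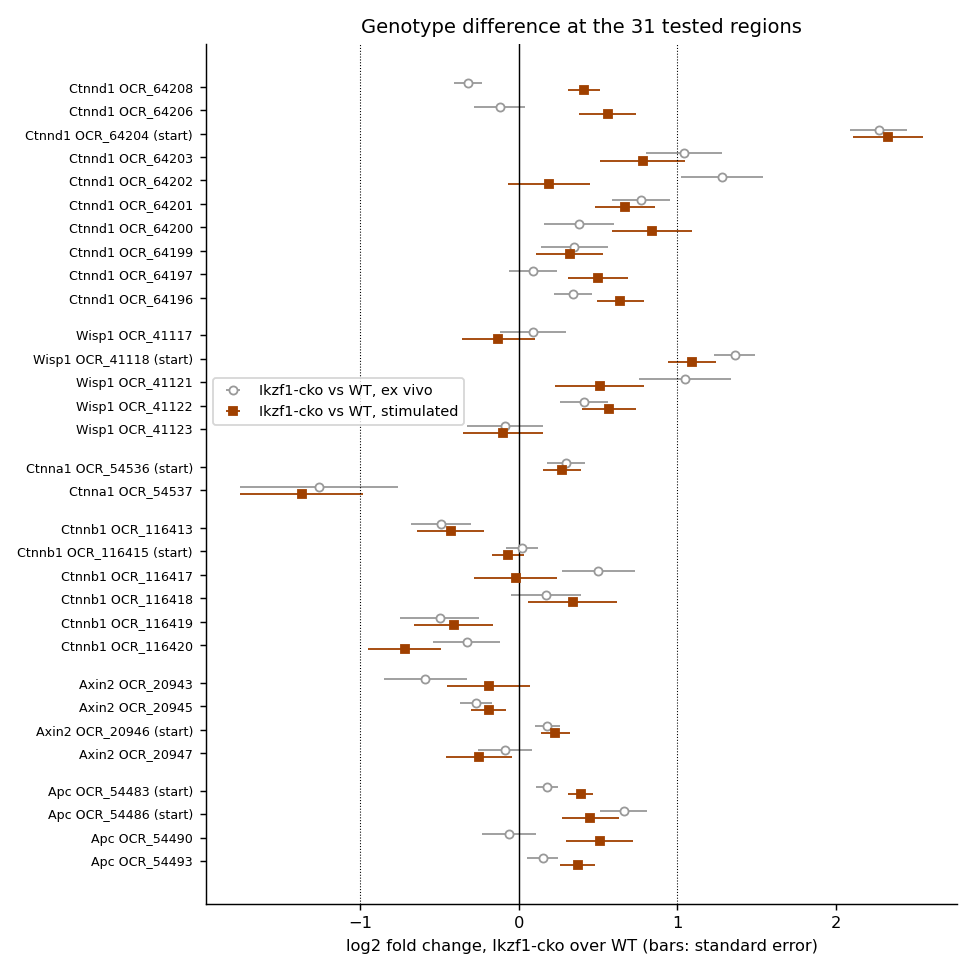
Log2 fold change of Ikzf1-cko over WT (x axis, bars are the SE, dotted lines at -1 and 1) at the 31 tested regions, grouped by gene and ordered by position along it, ex vivo (open circles, description only) and stimulated (filled squares). Regions of Ctnnd1 lie mostly right of 0, from 0.19 to 2.33 after stimulation, while those of Ctnnb1 and Axin2 lie on both sides.

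The responses to stimulation share the ex vivo libraries with the contrast that chose the genes. No p is therefore given for the 5 regions past both thresholds ex vivo, for OCR_64196, for OCR_116418 or for the internal Apc start. In WT Treg 1 member was called, a rise, where 20% of tested regions were called, 17.7% higher and 2.32% lower. By adjusted p alone 3 rose and 6 fell, where 47.6% of tested regions passed, 26.9% higher and 20.7% lower. In Ikzf1-cko Treg 1 was called, also a rise, where 3.65% of tested regions were, 3.02% higher and 0.632% lower. By adjusted p alone 2 rose and 5 fell, where 23.5% passed, 12% higher and 11.5% lower. The called region was OCR_54537 in both, with differences of 1.79 in WT, where the filter had picked it, and 1.68 in Ikzf1-cko, which under loess scaling became 0.01 and 0.97. In Ikzf1-cko its adjusted p of 0.0071 became 0.081 without stimulated replicate 1. Under loess scaling the WT count was again 1, but a fall, at the Ctnnb1 intron OCR_116418 (-1.09, and -0.72 with library totals). That region reached the filter minimum only in ex vivo libraries.

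The Ctnnb1 start measured higher after stimulation in both genotypes, though the rise in Ikzf1-cko did not pass the test under every alternative. Its libraries measured 18.4, 15.5 and 18.4 FPKM ex vivo in WT and 15.2, 18.6 and 19.1 FPKM ex vivo in Ikzf1-cko, all below the stimulated values given with that region. The rise was 0.40 ± 0.11 in WT (adjusted p = 0.0027, edgeR) and 0.31 ± 0.09 in Ikzf1-cko (adjusted p = 0.011), the latter 0.21 (adjusted p = 0.12) without ex vivo Ikzf1-cko replicate 1. Over the edgeR, DESeq2 and limma alternatives, the adjusted p was at most 0.028 in WT and reached 0.55 in Ikzf1-cko. Both rises rest in part on the ex vivo libraries of the contrast that chose the genes. At the Wisp1 start the difference was -0.49 in Ikzf1-cko and -0.21 in WT, and 0.02 in WT under loess scaling, given as values with no test. The Ctnnd1 downstream region OCR_64196 measured 20.3, 18.3 and 21.7 FPKM ex vivo in WT and 26.9, 26.1 and 23.2 FPKM in Ikzf1-cko. In each genotype all stimulated libraries were below the ex vivo ones, with differences of -0.83 and -0.53, given with no test. At the internal Apc start the difference was -0.45 in Ikzf1-cko, given with no test. It was -0.35 without ex vivo replicate 1, -0.35 without stimulated replicate 1 and -0.40 without stimulated replicate 3.

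The test of whether the genotypes responded differently called 0 members with edgeR, where 1.98% of tested regions were called, 0.579% higher and 1.4% lower, and 0 with DESeq2. An unadjusted p under 0.05 (edgeR) was reached by 4 of the 31 tested members. It was reached by 3690 of the 13211 tested start-site regions of all genes and by 80 of the 421 tested regions of other Wnt genes. At the Ctnnd1 and Wisp1 starts the differences of responses were 0.06 and -0.28, given with no test. One member passed by adjusted p alone, where 7.48% of tested regions did, 5.66% higher and 1.82% lower: OCR_64208 (chr2:84510193-84511391), at the far edge of the Ctnnd1 window and over the start of the neighbouring gene 2700094K13Rik. It measured 35.6, 32.5 and 31.8 FPKM in WT and 28.0, 28.0 and 23.5 FPKM in Ikzf1-cko ex vivo, then 23.2, 23.0 and 22.2 FPKM in WT and 27.0, 30.1 and 33.5 FPKM in Ikzf1-cko after stimulation. Every Ikzf1-cko library was below every WT library ex vivo and above every WT library after stimulation.

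Sums over all regions of a window are given without a test and include starts of neighbouring genes, OCR_64208 over 2700094K13Rik in the Ctnnd1 window and OCR_54493 over Srp19 in the Apc window. Under loess scaling the log2 differences were 0.08 and 0.05 at these and 0.03 at the main Apc start. In stimulated Treg the Ctnnd1 window took 75.9 ± 1.12 CPM in WT and 116.0 ± 9.46 CPM in Ikzf1-cko (SD, n = 3), a ratio of 1.53 over 8.88 kb of regions. The ratios were 1.39 for Wisp1 (34.4 and 47.8 CPM), 1.23 for Apc (103.0 and 126.0 CPM), 1.06 for Ctnna1, 1.04 for Axin2 and 0.867 for Ctnnb1 (77.0 and 66.8 CPM). No stimulated library of one genotype reached the other at Ctnnd1, Wisp1, Apc or Ctnnb1, and they overlapped at Ctnna1 and Axin2.

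**Figure D5:**
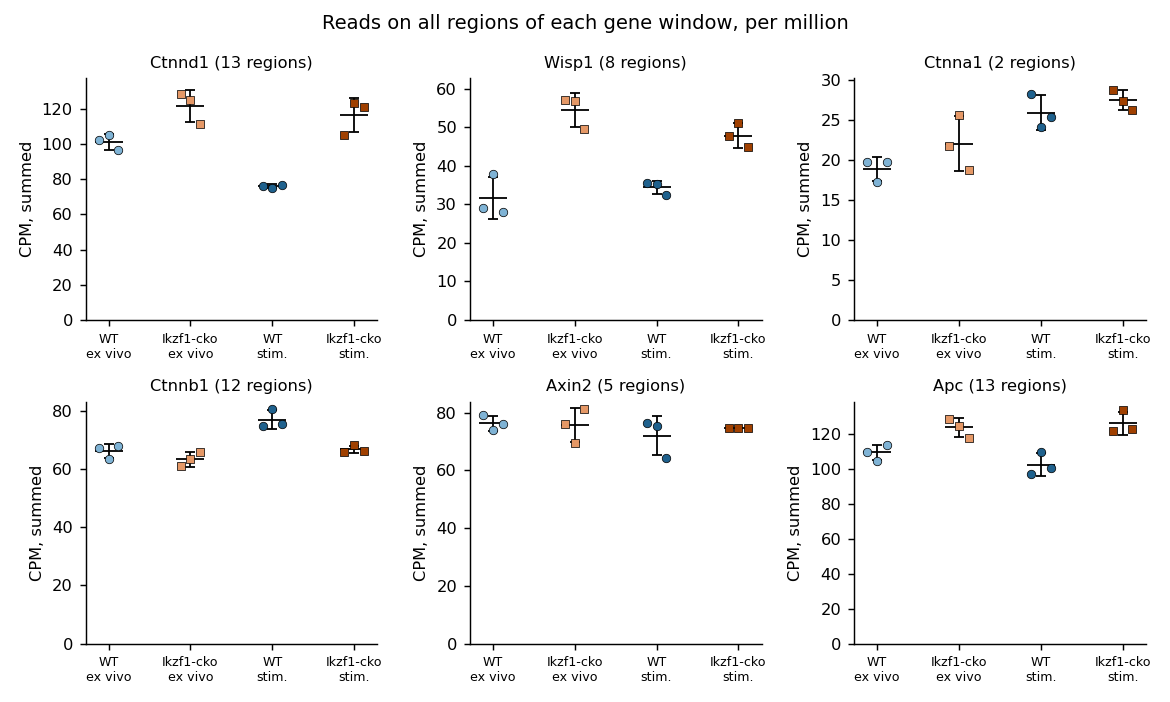
Reads on all regions of each gene window scaled to the library total (summed CPM, y axis from 0) in each library of the 4 groups, with bars for the mean ± SD (n = 3). Ctnnd1 and Wisp1 are higher in Ikzf1-cko Treg in both states, with ratios of 1.53 and 1.39 after stimulation. Ctnnb1 is lower after stimulation (0.867, and 0.901 over its tested regions alone).

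Motif letters were counted on both strands of the whole regions. GGGAA was found in 71.7% of the 53 members and 80.8% of all tested regions, TGANTCA in 18.9% and 23.9%, CTTTGAT in 15.1% and 9.91%, and GTAAACA in 3.77% and 8.42%. When only the central 300 bases were read, GGGAA was in 62.3% of members and 59.3% of tested regions, and TGANTCA in 11.3% and 13.8%. The shares were then 5.66% and 4.64% for CTTTGAT and 3.77% and 3.77% for GTAAACA. The start region of Ctnnd1 held 5 matches to GGGAA, that of Wisp1 3, of Ctnna1 9, of Ctnnb1 6, and the main starts of Axin2 and Apc 3 each.

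Among 13202 candidate start regions, those whose log2 CPM followed the Ctnnd1 start most closely over the 12 libraries lay at Gm10222 (Pearson r = 0.975), at Rdh1 and Rdh9, which encode retinol dehydrogenases (0.973), and at Acot7, an acyl-CoA thioesterase (0.972). For the Wisp1 start these were Ica1 (0.979), Cyfip1 (0.973) and Igsf9 (0.971), and for the Ctnnb1 start Tapbp (0.957), Znrf3, a ubiquitin ligase that removes Wnt receptors (0.951), and Hnrnpl (0.949). For Axin2 they were Pik3r4, the pair Kcnab2 and Nphp4, and Mrps25 (0.903 to 0.917), for Apc Hnrnpu, Ptpn12 and Chd1 (0.969 to 0.980) and for Ctnna1 Ugcg, Rhoc and Snx12 (0.917 to 0.967). The likeness is a description over 12 libraries that share 4 groups.

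No region of the other genes of the pathway was called higher in stimulated Ikzf1-cko Treg, where 1.16% of all tested regions were. A list of 84 genes (ligands, receptors, destruction complex and relay, nuclear partners, inhibitors, other catenins and cadherins, and CCN family) had 664 regions, of which 421 were tested. A total of 70 (16.6%) were called lower, where 20.2% of all tested regions were, and by adjusted p alone 45 rose and 127 fell, where 20.4% and 30.7% of all tested regions did. Of the 70, 42 had passed the filter only through stimulated WT libraries, so these had to be lower in Ikzf1-cko. The called falls lay mainly at other catenins and cadherins (36 of 60 tested) and receptors (19 of 46). Most of these were regions of a single gene in each list, Ctnnd2, which encodes δ-catenin, and the receptor gene Ror1. Examples are OCR_39587 at Ctnnd2, with 15.7 FPKM in WT and 3.47 FPKM in Ikzf1-cko, and OCR_80511 at Ror1, with 14.4 and 1.54 FPKM. Both regions were picked after their values were seen and are among those 42, so they are given with no test. Their log2 differences were -2.18 and -3.19, and -0.30 and -0.84 under loess scaling, where 1 rise and 11 falls were called in the list. Among nuclear partners 7 of 127 were called, of ligands 3 of 60, of inhibitors 2 of 64, of CCN genes 2 of 14 and of the destruction complex 1 of 50, all lower. Without WT replicate 1, 2 or 3 the 70 falls became 22, 30 and 26. In WT Treg stimulation gave 64 called rises and 2 falls in the list, where 17.7% and 2.32% of all tested regions were called, and 17 and 10 under loess scaling. In Ikzf1-cko it gave 9 and 3, where 3.02% and 0.632% were called, and 2 and 6 under loess scaling. Of the rises, 41 in WT and 7 in Ikzf1-cko had passed the filter only through stimulated WT libraries.

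The 20 kb limit left out regions close by. Just inside were OCR_64208 at 19.3 kb from Ctnnd1 and OCR_20943 at 18.9 kb from Axin2 (9.49 FPKM in stimulated WT and 8.40 FPKM in stimulated Ikzf1-cko). Just outside were OCR_20942 at 21.4 kb from Axin2 (8.20 and 5.33 FPKM), OCR_54535 at 24.3 kb from Ctnna1 (7.38 and 5.26 FPKM), OCR_41116 at 25.5 kb from Wisp1 (24 and 34.2 FPKM) and OCR_64209 at 26.9 kb from Ctnnd1 (90.4 and 127.0 FPKM). The nearest regions outside at Ctnnb1 and Apc were 62.1 and 50.1 kb away.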

How the data were processed

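Libraries were grouped by genotype and treatment, with replicate numbers, from their labels, and the stimulation time was taken from the methods. The methods state that the authors ran the ENCODE pipeline (bowtie2 alignment, duplicate removal, MACS2 peaks for each replicate) and built 1 reference set from peaks found in more than 1 replicate. A human build is printed there, but region coordinates and the processing notes are mm9. The authors deposited a de-duplicated read count per region and library, not normalized, together with FPKM. Recomputing FPKM from count, length and library total gave the deposited values. The 2 further columns per library, the library total and log2 FPKM, were not used. A second deposited table holds the authors' fold changes, F statistics, p-values and FDR and was not used.

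Counts were tested with edgeR 4.0.16 in R 4.3.3 (glmQLFit, glmQLFTest), with 4 group means over all 12 libraries, library totals as scaling, a minimum of 3.6 CPM in at least 3 libraries (69957 regions) and 24.4 prior degrees of freedom. Each SE was derived from the fold change and the F statistic. The methods' normalization to background bins needs reads outside regions. On simulated stimulated Ikzf1-cko against WT counts, 198 of 200 regions changed by a log2 fold of 2 were recovered and 4 others called, of 69957. The simulated regions shared the same dispersion, and no shift with abundance was put in. It therefore checks the working of the fit and does not give the error rate of the calls reported here. Genes and starts came from the gencode annotation of mm9, and motifs were searched in the mm9 reference. The members, gene lists, tests and alternatives were chosen with earlier results of these data known. Alternatives were TMM, loess, DESeq2 1.42.0, limma 3.58.1 on log2(FPKM + 1), other filters, fits on the compared libraries, a replicate block, leaving out each library, thinned counts, other windows and FDR alone. Regions named are those over starts of the 6 genes, the most accessible other region of each gene, the region with the smallest p of each gene in stimulated Ikzf1-cko against WT, and all past both thresholds in either genotype comparison. Other steps used Python 3.11.15, pandas 2.3.3, NumPy 2.4.6, SciPy 1.17.1 and Matplotlib 3.10.9. Expression and ChIP-seq data are not analysed here. Some genes of the marker lists are not reported here.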

Additional observations from a re-analysis of the deposited data

Results flagged for a closer look

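The region OCR_64208, over the start of 2700094K13Rik at the edge of the Ctnnd1 window, was picked out because the stimulation response differed between genotypes by a test of the difference itself. The log2 response was -0.54 ± 0.11 in WT and 0.19 ± 0.09 in Ikzf1-cko Treg, a difference of 0.73 ± 0.14 (adjusted p = 0.0015, edgeR, n = 3 per group), with all 3 stimulated WT libraries below all 3 ex vivo WT libraries. With loess scaling the difference was 0.51 (adjusted p = 0.021), and over all alternatives its adjusted p ranged from 2.7e-04 to 0.078. The difference rests in part on the ex vivo libraries of the contrast that chose the genes. The stimulated genotype difference of 0.41 at this region became 0.08 (adjusted p = 0.55) under loess scaling.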

How the results depend on the processing

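Of 1301 values of named regions under alternatives, 1175 kept their direction and their side of an adjusted p of 0.05, 74 lost and 26 gained significance, and 26 turned in sign, 10 of them under loess scaling and 12 on leaving out 1 library. With loess these were OCR_20946 to -0.12 and OCR_54537 to 0.48 for the stimulated genotype difference, OCR_116415 to -0.09 ex vivo, OCR_54483 to 0.20, OCR_20945 to 0.06, OCR_20946 to 0.18, OCR_41118 to 0.02 and OCR_54493 to 0.04 for WT stimulation, and OCR_41121 to -0.03 and OCR_41122 to 0.04 for Ikzf1-cko stimulation. OCR_116415 stimulated turned to 0.04 with DESeq2, OCR_116420 ex vivo to 0.19 with thinned counts, and OCR_54493 in Ikzf1-cko stimulation to -0.04 with TMM and -0.01 with DESeq2. Member counts moved as follows: ex vivo from 5 to 3 with limma, 8 with no filter, 1 with the minimum in all 12 libraries and 10 by FDR alone, stimulated from 3 to 1 with the minimum in all 12 libraries and 17 by FDR alone. For WT stimulation, 1 higher became 1 lower with loess, and 1 became 3 with no filter, 0 with the minimum in all 12 libraries or no extension, 2 with 50 kb and 9 by FDR alone. For Ikzf1-cko stimulation, 1 became 0 with loess, the minimum in all 12 libraries, the compared libraries alone or no extension, 2 with no filter and 7 by FDR alone. The difference of responses went from 0 to 1 by FDR alone or with 50 kb. In the other Wnt genes, the stimulated genotype count of 70 became 12 with loess, 173 with no filter, 3 with the minimum in all 12 libraries and 172 by FDR alone. For other Wnt pathway regions called, stimulated vs ex vivo, WT, the count of 66 became 27, 154, 6 and 173 under these. Ikzf1-cko stimulation, 12, became 3 with limma, 43 with no filter, 2 with the minimum in all 12 libraries or the compared libraries alone, 95 by FDR alone and 5 with no extension. In the central 300 bases the CTTTGAT share was 5.66% of members and 4.64% of tested regions, and the GGGAA share 62.3% and 59.3%. The median log2 fold change of all tested regions went from -0.13 to -0.01 ex vivo and from -0.11 to 0.00 stimulated with loess scaling.

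Leaving out each library in turn gave 3 to 5 members ex vivo, 2 to 4 stimulated, 0 to 1 for each stimulation response and 0 to 0 for the difference, with 0 in WT stimulation without stimulated WT replicate 2 or 3 and 0 in Ikzf1-cko stimulation without any stimulated WT replicate or stimulated Ikzf1-cko replicate 1. In the other Wnt genes it gave 22 to 76, 20 to 71 and 4 to 29, the last without ex vivo Ikzf1-cko replicate 3. Where a named region turned in this way, its log2 difference ranged from -0.06 to 0.12 at OCR_116415 ex vivo, -0.02 to 0.35 at OCR_64202 stimulated, -0.36 to 0.22 at OCR_64203 in WT stimulation and, in Ikzf1-cko stimulation, -0.07 to 0.05 at OCR_20946, -0.09 to 0.32 at OCR_41121, -0.10 to 0.06 at OCR_41122 and -0.06 to 0.09 at OCR_54493. Same-numbered libraries correlated in their deviations from group means at -0.409 to 0.314 and others at -0.37 to 0.459, so the numbers do not show which libraries share sorted cells, and the fits without a block treat the libraries as independent. With a replicate block the member counts were 5 ex vivo, 3 stimulated, 1, 1 and 0, and in the other Wnt genes 71, 66 and 8. Where not stated, the cause of a change was not tested.

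With 11 to 31 reads in the weaker WT libraries of some members, small differences were not detectable at this depth, and 22 of 53 members were not tested.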
